A study of Mus musculus with 8 samples.

Results

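Smooth muscle cells and pericytes are the mural and airway-wrapping cells of the embryonic lung, and 10 genes that mark them were followed through 8 RNA-seq libraries. The genes were picked by symbol out of the 23997 symbols in the deposited tables, and each had 1 record. They comprise 6 genes of the contractile and cytoskeletal apparatus (Acta2, Actg2, Cnn1, Myh11, Tagln and Des), the transcriptional coactivator gene Myocd, and 3 pericyte genes (Pdgfrb, Cspg4 and Rgs5). Values are FPKM, the fragments per kilobase of transcript scaled to the fragments of a library, which allows levels of different genes to be set side by side.

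All libraries came from embryonic lung of C57BL/6 mice. Translating ribosome affinity purification (TRAP) recovers the mRNA on ribosomes that carry a tagged protein in chosen cells. Here the labelling was induced with tamoxifen and ribosomes were recovered by immunoprecipitation of L10, a protein of the large subunit, and the library titles name Sox9, which encodes a transcription factor that the growing epithelial tips express. Wild-type lungs gave 1 TRAP and 1 whole lung library at E14, the same at E17, and 2 TRAP libraries at E16. A further 2 E16 TRAP libraries came from Sox9-mutant lungs. The labels name neither the driver of the labelling beyond Sox9 in the titles nor the part of Sox9 that the mutation removes, and they do not explain why the E16 titles also carry E13. The series design calls the E14 reference a supernatant, whereas its sample label calls it whole lung homogenate, and it is called whole lung here. Nothing says that replicates came from separate embryos, so p-values measure the spread between these libraries, which may be technical.

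Airway smooth muscle forms from mesenchyme beside the epithelial tubes, vascular smooth muscle encloses the larger vessels, and pericytes lie along capillaries. Contractile genes of smooth muscle are switched on by serum response factor (SRF) with its coactivator myocardin. SRF binds the CArG box, a short element of CC, a run of A or T, and GG. Pericytes are recruited through the receptor PDGFRB by PDGF-B from endothelium.

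The promoter of Acta2, which encodes smooth muscle alpha-actin (chromosome 19, 34240336 to 34255373, mm10), is printed with that of Cspg4, which encodes the NG2 proteoglycan of pericytes (chromosome 9, 56865104 to 56899870), since Acta2 had the widest gap between its stage changes in TRAP and whole lung and Cspg4 was the gene whose TRAP share at E17 lay above that at E14 with no overlap of intervals. Both are the 150 bases before the annotated start, from RefSeq on GRCm38.p6, at chr19:34255374-34255523 on the minus strand and chr9:56864954-56865103 on the plus strand. For Acta2 that start is the end of the deposited record at 34255373. The RefSeq gene span of Acta2 reaches 34255585, so the printed stretch lies inside it, and positions would differ from a start there. Capitals mark matches to the CArG box with 1 base off.
Acta2: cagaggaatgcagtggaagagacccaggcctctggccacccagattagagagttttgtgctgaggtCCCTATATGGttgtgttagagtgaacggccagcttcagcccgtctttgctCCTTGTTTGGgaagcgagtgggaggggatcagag
Cspg4: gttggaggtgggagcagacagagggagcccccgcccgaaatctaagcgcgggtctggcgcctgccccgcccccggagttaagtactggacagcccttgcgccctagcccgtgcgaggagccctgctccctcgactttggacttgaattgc
RefSeq promoter windows of 300 bases, 250 of them before the start, were matched for 5 of the 10 genes (Acta2, Cnn1, Des, Cspg4 and Rgs5). The CArG box reads the same on both strands. In the Acta2 window the boxes lie at -84 to -75 (CCCTATATGG) and at -34 to -25 (CCTTGTTTGG), counted from the annotated start. No exact box and none with 1 base off was found in the other 4 windows. Over all 32851 windows, 1.63% held an exact box, 9.98% held one exactly or with 1 base off, and 0.822% held at least 2 such boxes. A match is a description of these letters and not a measured binding site.

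The libraries held between 9783768 and 21500523 fragments, as computed from the deposited confidence bounds. With depth allowed for, fragments per FPKM stayed within 0.1 log2 units across libraries for 4687 of 12165 records averaging at least 1 FPKM. Among the 10 genes they did so for 2. Elsewhere the inferred fragments, and the limma-voom values that rest on them, are less certain. Behind the values of single genes lay between 614 and 10915 fragments for Acta2, while the least covered values, of Rgs5 and Myocd, rested on 13 fragments. Sox9 itself had 36.1 ± 0.385 FPKM in the E16 wild type and 11.9 ± 1.25 FPKM in the mutant (SD, n = 2 each; log2 -1.53, limma with Benjamini-Hochberg adjustment, adjusted p = 0.000153). Of 10 epithelial markers, 10 were higher in TRAP, while 12 of 12 markers of lung mesenchyme and 10 of 10 of endothelium were lower. Among all 12320 records, 17.1% passed as lower and 23.6% as higher. Lum of the mesenchyme markers and Tek and Flt1 of the endothelial markers had TRAP means under 1 FPKM. They passed the filter on low values only through whole lung, so their direction was fixed by it. The summed FPKM of the mesenchyme markers was 114 and 127 in E14 and E17 TRAP against 1218 and 1463 in whole lung.

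Whole lung shows where these genes stand in the organ. Acta2 had the highest level of the 10 genes in both whole lung libraries, at 151 FPKM at E14 and 174 FPKM at E17. Actg2, which encodes the gamma-actin of visceral smooth muscle (chromosome 6, 83512909 to 83536251), and Tagln, which encodes the actin-binding protein transgelin (chromosome 9, 45929628 to 45936058), came next. Their order changed with stage, since Actg2 had 76.9 and 37.8 FPKM and Tagln 60.2 and 80.5 FPKM at E14 and E17. The receptor gene Pdgfrb (chromosome 18, 61045150 to 61085067) had 21.3 and 22.3 FPKM. Cnn1, which encodes calponin, an actin-binding inhibitor of myosin ATPase (chromosome 9, 22099253 to 22109221), had 18.0 and 9.60 FPKM. Myocd (chromosome 11, 65176571 to 65269989) and Cspg4 were the lowest at E14, at 3.58 and 1.49 FPKM, and with 1 library per stage there is no replicate spread behind this order.

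**Figure D1:**
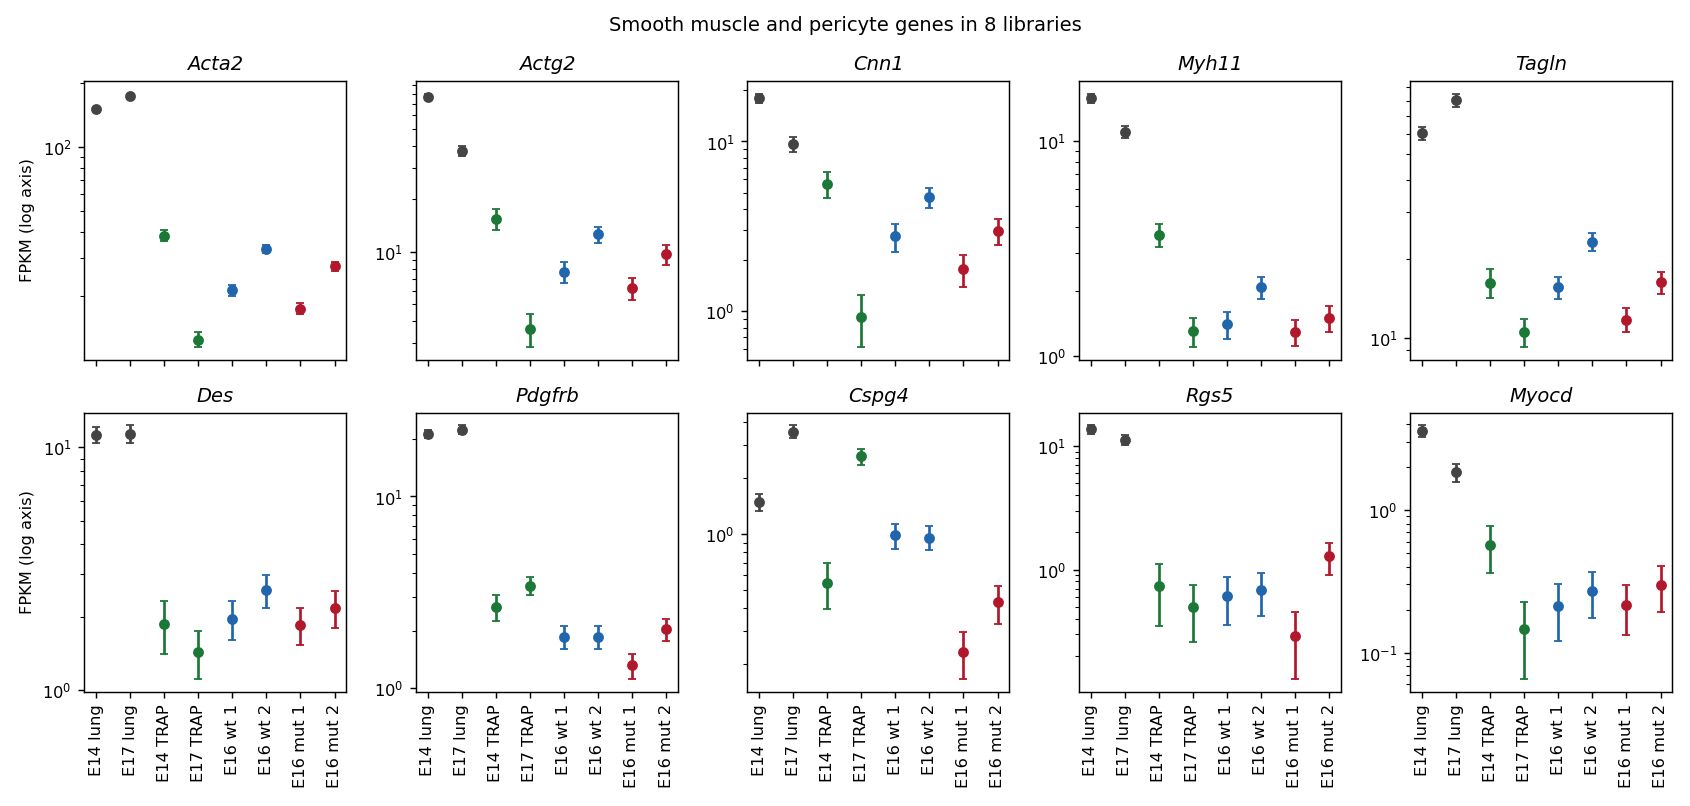
FPKM of each of the 10 genes on a log axis, with 1 panel per gene, 1 point per library, the groups told apart by colour and bars for the deposited lower and upper bounds. Whole lung lies above TRAP at both stages for every gene, as for Acta2, with 151 and 174 FPKM in whole lung against 38.3 and 12.5 FPKM in TRAP.

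Setting TRAP against whole lung asks how far smooth muscle and pericyte mRNA is left out of the pulldown. All 10 genes were lower in TRAP than in whole lung at both stages, and 9 of them passed the test, all but Cspg4. Across all 12320 records tested, 17.1% passed as lower in TRAP and 23.6% as higher. The median log2 difference of the 10 genes was -2.28, against 0.05 over all records. The test was limma on log2(FPKM + 1) with stage as a term, so a fold is a fold of FPKM + 1 and understates the change of low genes, and the p-values rest on how well the stages agree. In bulk RNA, fewer cells of a type and less RNA per cell cannot be told apart.

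Among the contractile genes, Acta2 had 38.3 FPKM in TRAP against 151 FPKM in whole lung at E14, and 12.5 against 174 FPKM at E17. TRAP was thus below whole lung at each stage, and by more at E17. In the joint fit it was 7.08-fold lower (log2 -2.82 with an SE of 0.39, adjusted p = 0.0045 by limma and Benjamini-Hochberg). Actg2 had 15.3 against 76.9 FPKM at E14 and 3.63 against 37.8 FPKM at E17, a 6.32-fold decrease (log2 -2.66, SE 0.20, adjusted p = 0.00105). Myh11, which encodes the smooth muscle myosin heavy chain (chromosome 16, 14194527 to 14291408), had 3.67 against 15.8 FPKM and 1.30 against 11.0 FPKM. Its log2 difference was -2.12 (SE 0.18, adjusted p = 0.00135).

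Transgelin and calponin followed the same direction. Tagln had 16.2 against 60.2 FPKM at E14 and 10.5 against 80.5 FPKM at E17 (log2 -2.33, adjusted p = 0.00199). Cnn1 had 5.63 against 18.0 FPKM and 0.929 against 9.60 FPKM (log2 -1.99, adjusted p = 0.00338). Des encodes desmin, the intermediate filament protein of muscle (chromosome 1, 75360292 to 75368579), and had 1.87 against 11.3 FPKM and 1.43 against 11.4 FPKM (log2 -2.22, adjusted p = 0.000948). Myocd, which encodes myocardin, had 0.564 against 3.58 FPKM and 0.146 against 1.84 FPKM (log2 -1.43, adjusted p = 0.00551).

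The pericyte genes divided. Pdgfrb had 2.66 against 21.3 FPKM at E14 and 3.43 against 22.3 FPKM at E17, a 5.65-fold decrease (log2 -2.50, SE 0.14, adjusted p = 0.000572). Rgs5, which encodes a regulator that speeds GTP hydrolysis by G protein alpha subunits (chromosome 1, 169655501 to 169693526), had 0.732 against 13.7 FPKM and 0.500 against 11.2 FPKM. It had the largest fitted decrease of the 10 genes, 8.31-fold (log2 -3.06, SE 0.16, adjusted p = 0.000531). Cspg4 had 0.546 against 1.49 FPKM at E14 and 2.61 against 3.55 FPKM at E17, and it did not pass (log2 -0.51, SE 0.20, adjusted p = 0.0952). Its TRAP value at E17 lay above its whole lung value at E14.

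Rgs5 and Myocd had a TRAP mean under 1 FPKM and passed the filter on low values only through whole lung, so they had to differ. The other 8 genes had a TRAP mean of at least 1 FPKM. The fitted log2 of these low genes moved most with the method, to -4.42 for Rgs5 and -3.12 for Myocd with limma-voom and to -4.14 and -2.73 with a pseudocount of 0.1, while Tagln moved to -1.69 with limma-voom. With no filter on low values the log2 differences were the same, but none of the 10 passed (adjusted p = 0.153 to 0.244 for the 9 genes that had passed). Cspg4 passed with limma-voom on inferred fragments (log2 -0.79, adjusted p = 0.0327), where 21.8% of all records were lower and 14.2% higher. By limma it passed with libraries rescaled to a common FPKM total (log2 -0.84, adjusted p = 0.00664), which moved the median of all records to -0.31. That fit gave Rgs5 a limma adjusted p of 1.47e-37, against 0.000531 in the main fit. Such a value is implausible with 1 residual degree of freedom, so the pass of Cspg4 in that fit carries no weight. Cspg4 also passed by limma with the spread taken from all 8 libraries (adjusted p = 0.00821). The shares of all records that passed are not given for the common total or for the fit of all 8 libraries.

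The size of the depletion is read most directly as the TRAP level in percent of the whole lung level. For Acta2 it was 25.4% at E14 and 7.18% at E17, with 95% intervals from the deposited bounds of 23.9% to 27.0% and 6.62% to 7.79%. For Cnn1 it was 31.3% (26.0% to 37.6%) and 9.67% (6.82% to 13.7%), and for Actg2 19.9% (17.3% to 22.9%) and 9.60% (7.69% to 12.0%). The share was lower at E17 for each of the 6 contractile genes, down to Des with 16.6% and 12.6%, whose intervals overlapped. Rgs5 had the lowest shares, 5.35% (3.19% to 8.96%) and 4.46% (2.74% to 7.24%), and they overlapped too. For Myocd the share was 15.7% (11.0% to 22.6%) at E14 and 7.92% (4.52% to 13.9%) at E17, also with overlap. Pdgfrb went the other way with overlapping intervals, from 12.5% (10.7% to 14.7%) to 15.4% (13.7% to 17.4%).

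Cspg4 stood apart with 36.6% (27.4% to 48.9%) at E14 and 73.4% (64.9% to 83.1%) at E17. Of the 10 genes, 5 had an E17 interval wholly below the E14 interval (Acta2, Actg2, Cnn1, Myh11 and Tagln), Cspg4 had one wholly above it, and 4 overlapped. These intervals cover the error of a single library's estimate and no difference between animals. The share of all records whose intervals separate is not given here, so these counts have no background. A lower share at E17 was found for 15 of 21 other contractile genes, 13 of 15 paralogues and 10 of 10 epithelial markers. Among mesenchyme and endothelial markers it was 7 of 12 and 6 of 10. Among other pericyte genes and SRF with its partners it was 5 of 12 and 3 of 10. The bounds of Myh11, Tagln, Pdgfrb and Des did not scale with depth alone, so their intervals are less certain. The median share over the 10 genes was 21.6% at E14 and 10.7% at E17, against 10.1% and 8.15% for mesenchyme markers, 9.49% and 9.08% for endothelial markers and 459% and 263% for epithelial markers.

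**Figure D2:**
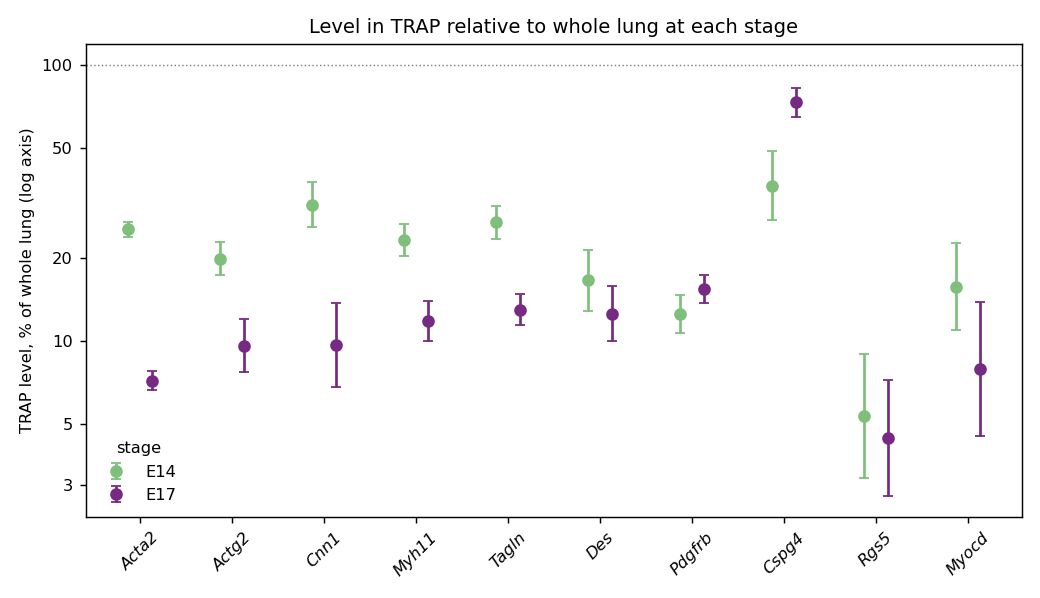
TRAP level in percent of whole lung at E14 and E17 for each of the 10 genes, on a log axis, with 95% intervals from the deposited bounds of 1 library each. The Acta2 points lie at 25.4% and 7.18%, and Cspg4 is the gene whose E17 interval, around 73.4%, lies wholly above its E14 interval.

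Other genes of the contractile apparatus gave mixed calls. Of 21 tested, 13 were lower in TRAP, 2 were higher and 6 did not pass, with a median log2 of -0.79. The 4 with the smallest p were Cald1, which encodes the actin-binding protein caldesmon (log2 -3.27), the integrin gene Itga8 (-2.82), Mylk, which encodes myosin light chain kinase (-2.69), and the tropomyosin gene Tpm2 (-1.96). Itga8 and Synpo2, another of the 13, had TRAP means under 1 FPKM and entered the test only through whole lung, so they had to differ. Mylk had a log2 of -1.24 with limma-voom. Cald1 had 8.08 against 83.1 FPKM at E14 and 3.76 against 46.8 FPKM at E17. Of SRF and its partners, 5 of 10 were lower and 0 higher, with a median of -0.48. Mef2c and Mef2a, which encode MADS-box factors related to SRF, had log2 differences of -2.03 and -1.07. Mef2c, like Itga8, entered the test only through whole lung. Csrp2, which encodes a LIM protein of smooth muscle, was lower too (-1.03), as was the SRF partner gene Elk4 (-0.87).

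Other pericyte genes were mostly depleted. Of 12 tested, 9 were lower, 1 was higher and 2 did not pass, with a median log2 of -1.65. Both subunit genes of the nitric oxide receptor guanylate cyclase were lower, Gucy1a3 with a log2 of -3.48 (-2.69 with limma-voom) and Gucy1b3 with -3.06, as were the endothelin receptor gene Ednra (-3.20) and the angiopoietin gene Angpt1 (-2.27). Angpt1 and Abcc9, another of the 9, entered the test only through whole lung, so their direction was fixed by the filter. Gucy1a3 had 2.13 against 34.7 FPKM at E14 and 2.54 against 37.8 FPKM at E17. Cox4i2, a cytochrome oxidase subunit gene used as a pericyte marker, did not pass, with 7.97 against 8.65 FPKM and 65.2 against 53.4 FPKM (log2 0.09, adjusted p = 0.621). The single higher call among these genes was lost when libraries were rescaled to a common FPKM total.

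**Figure D3:**
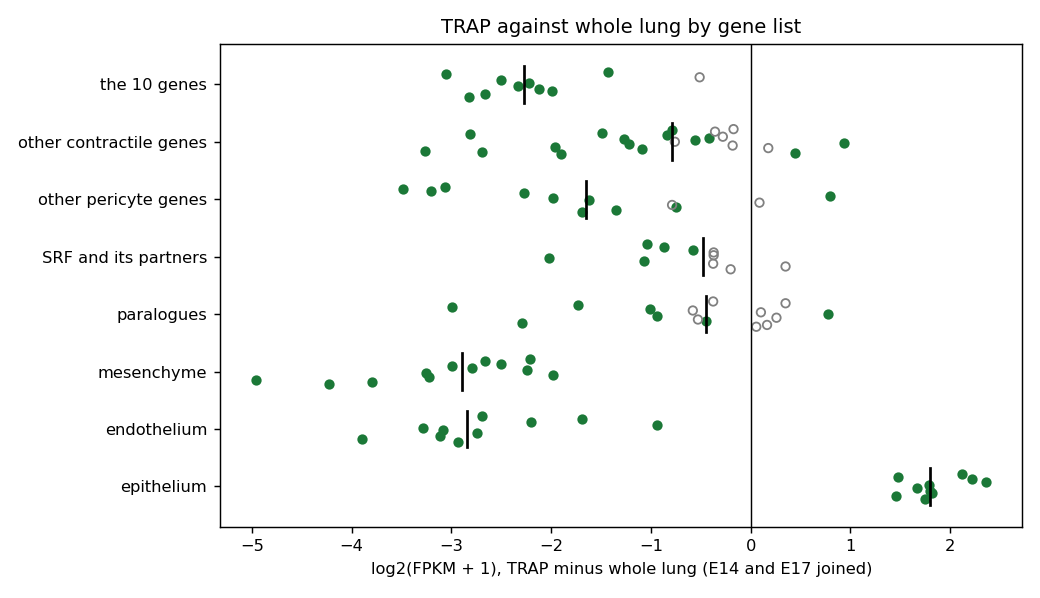
Log2 difference of TRAP against whole lung for the genes of each list, with 1 point per tested gene, filled where the adjusted p passed and open where it did not, and a bar at the list median. The 10 smooth muscle and pericyte genes have a median of -2.28, between mesenchyme at -2.90 and the other contractile genes at -0.79.

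The stage comparison asked how these genes differ between E14 and E17 in the whole organ and in the TRAP fraction. Each pair consists of 1 library per stage, so there is no replicate check and the values are a description. In whole lung the contractile genes did not move as a block. Acta2 was higher at E17, with 174 against 151 FPKM (1.15 times, 95% interval from the bounds 1.12 to 1.19), and Tagln was 1.34 times its E14 level. Actg2 was lower, with 37.8 against 76.9 FPKM (0.491 times, 0.456 to 0.528), as were Cnn1 (0.534 times), Myocd (0.514 times) and Myh11 (0.699 times). Des was near its E14 level (1.01 times, 0.902 to 1.13).

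Pericyte genes in whole lung showed a different spread. Pdgfrb was at 1.05 times its E14 level (0.976 to 1.12) and Rgs5 at 0.820 times (0.726 to 0.927). Cspg4 was at 2.38 times (2.09 to 2.71), from 1.49 to 3.55 FPKM. Counting a change as 2-fold or more of FPKM + 1, Actg2 was the 1 gene of 10 that was lower, beside 1.23% of all records, and 0 were higher, beside 4.67%. The median of all records was -0.01.

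In TRAP the contractile genes were lower at E17 throughout. Acta2 had 12.5 FPKM at E17 against 38.3 FPKM at E14 (0.326 times, 0.296 to 0.360), Actg2 3.63 against 15.3 FPKM (0.237 times), Cnn1 0.929 against 5.63 FPKM (0.165 times) and Myh11 1.30 against 3.67 FPKM (0.355 times). Tagln was at 0.645 times its E14 level and Des at 0.764 times (0.550 to 1.06). Myocd was at 0.259 times, from 0.564 to 0.146 FPKM. Of the 10 genes, 4 were at least 2-fold lower (Acta2, Actg2, Cnn1 and Myh11), beside 1.82% of all records, and 1 was at least 2-fold higher, beside 4.55%. That gene was Cspg4, with 2.61 against 0.546 FPKM (4.78 times, 3.59 to 6.36). Pdgfrb was at 1.29 times and Rgs5 at 0.684 times (0.340 to 1.37).

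Set side by side, the whole lung and TRAP changes of Acta2 had opposite signs, log2 0.21 and -1.54. Tagln did the same, with 0.41 and -0.59. Des had 0.01 and -0.24, but its whole lung change turned negative with a common FPKM total (-0.04), with that total taken without records under 200 bases (-0.09) and with median centring (-0.01). Over all records 10.7% were higher in whole lung and lower in TRAP. Actg2 (-1.01 and -1.82), Cnn1 (-0.84 and -1.78) and Myh11 (-0.48 and -1.02) were lower in both fractions and by more in TRAP. In log2(FPKM + 1) the TRAP change lay below the whole lung change for 6 of the 10 genes, which are the 6 contractile genes, against 46.9% of all records. This split depended on the processing. With a pseudocount of 0.1 the difference was negative for Myocd (-0.51) and Rgs5 (-0.19) too. With a common FPKM total it was negative for Pdgfrb (-0.12) and Rgs5 (-0.09). The gap was 2-fold or more for 1 of the 10, Acta2 (log2 -1.75), with Tagln just short of it (-0.999), beside 1.87% of all records, and 0 of the 10 had one in the other direction, beside 0.974%. That count of 1 became 2 with median centring and 4 with a pseudocount of 0.1 or a common FPKM total.

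A fit of all 8 libraries in 6 groups gives these pairs a test by assuming that single libraries vary like the E16 duplicates. In that fit no difference between the TRAP and whole lung stage changes passed among the 10 genes, where 0.852% of all records passed as lower and 0.511% as higher. Acta2 had the smallest p (limma adjusted p = 0.173), and 1 of the 10 had an unadjusted p under 0.05. Within TRAP, Acta2 (limma adjusted p = 0.0334), Actg2 (0.0201), Cnn1 (0.018), Myh11 (0.0158) and Myocd (0.0468) came out below the threshold on the lower side and Cspg4 (0.00469) on the higher side, as did 16.4% and 19.3% of all records. Within whole lung, Cspg4 (0.0124) came out higher and Myocd (0.0157) lower, as did 18.4% and 15.6% of all records. Both arms of each pair are single libraries and the E16 duplicates may be technical, so these p-values hold only under that assumption and show no replicated change.

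Markers of other cell types moved between the stages as well. The summed FPKM of the epithelial markers was 2904 in E14 TRAP and 14498 in E17 TRAP, and 605 and 4043 in whole lung. Much of that lay in the surfactant gene Sftpc, which stood at 29.6 times its E14 TRAP level, while the median log2 change of the 10 markers was 0.14 in TRAP and 0.84 in whole lung. The summed FPKM of mesenchyme markers was 114 and 127 in TRAP, while the 6 contractile genes together had 81.0 FPKM in E14 TRAP and 30.2 FPKM in E17 TRAP, and 333 and 324 FPKM in whole lung. The 3 pericyte genes together had 3.94 and 6.54 FPKM in TRAP and 36.4 and 37.1 FPKM in whole lung. Most of the rise in TRAP lay in Cspg4, from 0.546 to 2.61 FPKM. Pdgfrb went from 2.66 to 3.43 FPKM there, and Rgs5 went down from 0.732 to 0.500 FPKM. The part of these shifts in the stage values was not tested.

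**Figure D4:**
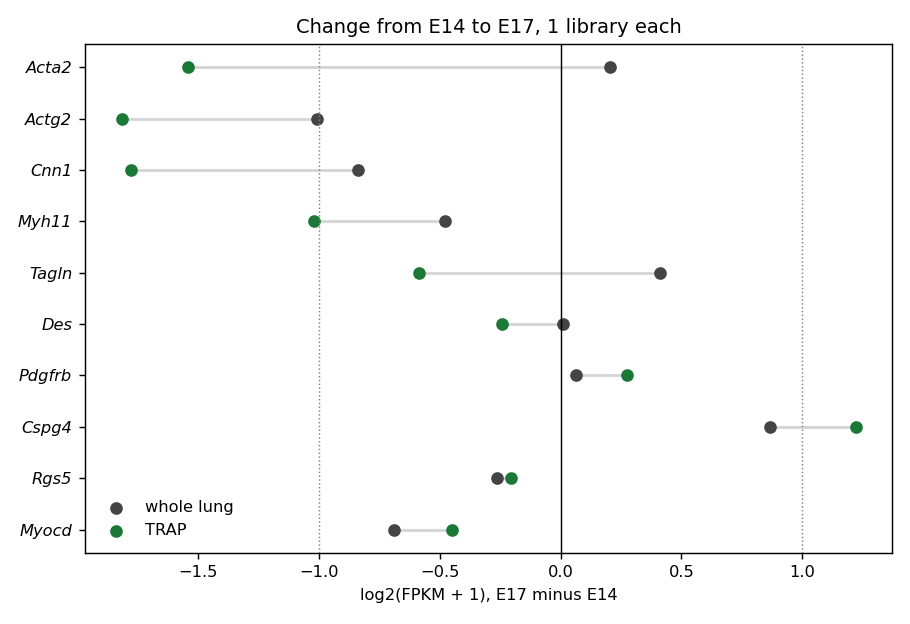
Log2 change from E14 to E17 of FPKM + 1 in whole lung and in TRAP for each of the 10 genes, from 1 library per stage and fraction, with dotted lines at a 2-fold change. The TRAP point lies below the whole lung point for the 6 contractile genes, and the widest gap is that of Acta2, from 0.21 to -1.54.

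The actins can be read against their family. Acta2 made up 4.34% and 4.98% of the summed FPKM of 6 actin genes in E14 and E17 whole lung, against 1.05% and 0.367% in TRAP. Actg2 stood at 51.0% of the Acta2 level in E14 whole lung and at 21.7% in E17 whole lung, and at 40.0% and 29.0% in TRAP. In the E16 TRAP libraries that ratio lay between 35.0% and 37.7%, in wild type and mutant alike, which is between the E14 and E17 TRAP values. Actin genes are near-identical in their coding sequence, so the division of fragments among them is uncertain.

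Pericyte genes outside the 10 divided between the stages. Of 12 that passed the filter on low values, 6 were at least 2-fold higher at E17 in whole lung and 0 at least 2-fold lower. Over all records the shares were 4.67% and 1.23%, and in TRAP 4.55% and 1.82%. The largest log2 changes of FPKM + 1 in whole lung were in Ndufa4l2 (19.9 times its E14 level), Higd1b (22.3 times), Cox4i2 (6.17 times) and the potassium channel subunit gene Abcc9 (5.18 times). Higd1b and Abcc9 were under 1 FPKM at E14 in whole lung and TRAP and passed the filter only through E17. Their direction in whole lung was fixed by it. Ndufa4l2 and Higd1b encode mitochondrial proteins used as pericyte markers. Ndufa4l2 had 3.93 FPKM at E14 and 78.1 FPKM at E17 in whole lung, and 1.62 and 14.8 FPKM in TRAP. In TRAP 3 of the 12 were at least 2-fold higher, Cox4i2 (2.88), Ndufa4l2 (2.59) and Higd1b (1.66), and 1 was lower, the Notch receptor gene Notch3 (-1.02). Other contractile genes were mixed, with 3 of 21 higher and 1 lower in whole lung (the LIM protein gene Pdlim3 1.57, the myosin phosphatase inhibitor gene Ppp1r14a 1.49, the intermediate filament gene Synm 1.41 and the filamin gene Flna -1.08, in log2), and 2 higher and 3 lower in TRAP, with Synm at 1.65 and Flna at -1.80.

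The E16 wild-type TRAP libraries add a stage between these, though the labels do not tie them to the E14 and E17 pairs. For 7 of the 10 genes (Acta2, Actg2, Cnn1, Myh11, Cspg4, Rgs5 and Myocd) both E16 values lay between the E14 and the E17 TRAP values. Acta2, for instance, had 21.3 and 33.4 FPKM at E16, between 38.3 and 12.5 FPKM. Des lay above both in each E16 library, with 1.97 and 2.58 FPKM, and Pdgfrb lay below both, with 1.85 FPKM in each. For Rgs5 the deposited bounds in TRAP overlapped between E14 (0.350 to 1.11 FPKM) and E17 (0.258 to 0.743 FPKM), so its place between them is not resolved. The share of all records that lay between the stages is not given here, so the count of 7 has no background.

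The comparison of Sox9 mutant with wild type at E16 asked whether the smooth muscle and pericyte mRNA found in the TRAP fraction differs when Sox9 is mutated. Of the 7 genes that could be tested, 0 passed limma's test with Benjamini-Hochberg adjustment and 0 had an unadjusted p under 0.05, beside 14.3% lower and 17.4% higher among 11872 records. Limma-voom called 1, Cspg4, which had been below the filter on low values of limma's test. With the replicate number as a block, Acta2, Actg2, Cnn1 and Tagln passed as lower, as given below with the other processing alternatives. The labels do not say that the replicate numbers mark pairs. The mutant mean was below the wild-type mean for 8 of the 10 genes, but the genotypes overlapped for 9 of them.

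The wild-type libraries had 21.3 and 33.4 FPKM of Acta2, and the mutant libraries 17.4 and 27.6 FPKM. The groups overlapped, with means of 27.4 ± 8.51 and 22.5 ± 7.16 FPKM (SD, n = 2 each), and the log2 difference was -0.27 (95% interval -0.93 to 0.39, adjusted p = 0.476 by limma). For Tagln the wild-type values were 15.5 and 23.2 FPKM and the mutant values 11.7 and 16.3 FPKM. Its values overlapped as well (log2 -0.43, 95% interval -0.97 to 0.10, limma adjusted p = 0.179), and it had the smallest p of the 7 genes. Cnn1 stood at 2.76 and 4.68 FPKM in wild type against 1.76 and 2.97 FPKM in the mutant, with overlap (log2 -0.48, 95% interval -1.10 to 0.14, limma adjusted p = 0.197).

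The other tested genes overlapped between the genotypes too. Actg2 had 7.68 and 12.6 FPKM against 6.17 and 9.64 FPKM in the mutant (log2 -0.31, 95% interval -0.96 to 0.33). The log2 difference was -0.19 for Myh11 (-0.56 to 0.18), -0.11 for Des (-0.44 to 0.21) and -0.11 for Pdgfrb (-0.48 to 0.27). These intervals leave room for a change in either direction. When every library was rescaled to a common FPKM total, which moved the median of all records to 0.41, the difference turned positive for Acta2 (0.16), Actg2 (0.07), Myh11 (0.04), Des (0.16) and Pdgfrb (0.16). Acta2 also turned positive without wild-type replicate 2 (0.04) and without mutant replicate 1 (0.04). Actg2 (0.01) and Des (0.02) did so without wild-type replicate 2, and Pdgfrb (0.09) without mutant replicate 1.

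Cspg4 was the exception. The wild-type libraries had 0.985 and 0.956 FPKM and the mutant libraries 0.233 and 0.429 FPKM, where the mean was 34.1% of the wild-type mean. Among the 10 genes it was the 1 whose groups did not overlap, and among all tested records 33.3% had both mutant values below both wild-type values and 36.8% had both above. With a mean below 1 FPKM it did not enter limma's test. With no filter it did not pass (log2 -0.57, limma adjusted p = 0.103), where 2.05% of all records passed as lower and 2.8% as higher. Limma-voom on inferred fragments, 173.5 and 185.4 in the wild type and 49.3 and 76.0 in the mutant, called it lower (log2 -1.61, adjusted p = 0.00107), as it did 11.5% of all records, while 16.6% were called higher. Rgs5 stood at 0.612 and 0.679 FPKM in wild type against 0.292 and 1.28 FPKM in the mutant, and Myocd had 0.211 and 0.272 against 0.215 and 0.298 FPKM, both overlapping and both below the filter.

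**Figure D5:**
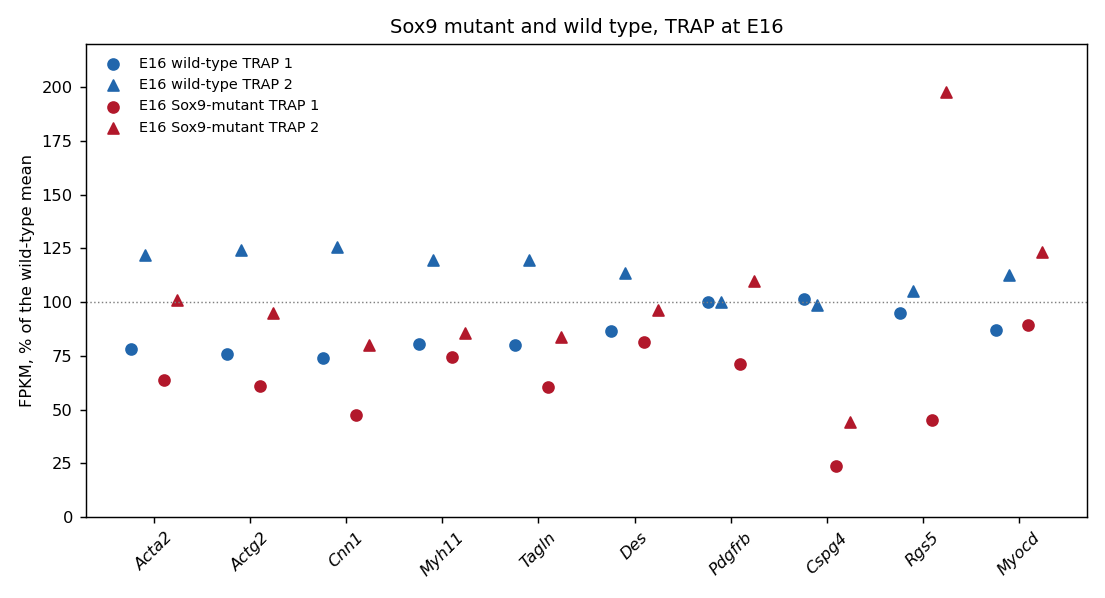
Level of each of the 10 genes in the 2 wild-type and 2 mutant E16 TRAP libraries, as percent of the wild-type mean FPKM on a linear axis, with 1 point per library. The genotypes overlap for 9 genes, and for Cspg4 both mutant points lie below both wild-type points, with a mean at 34.1%.

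Replicate 2 had more smooth muscle mRNA than replicate 1 in both genotypes. It was the higher replicate for 8 of the 10 genes in the wild type and for 10 of 10 in the mutant, against 47.8% and 58% of all records. The 6 contractile genes together reached 50.7 and 78.5 FPKM in wild type, and 40.2 and 60.1 FPKM in mutant libraries. The summed mesenchyme markers moved with them, at 124 and 166 FPKM in wild type, and 85.0 and 152 FPKM in mutant libraries. Endothelial markers stood at 69.0 and 84.6 FPKM in wild type, and 57.9 and 44.4 FPKM in mutant libraries, and cardiac muscle markers had 8.54 and 8.44 FPKM against 42.7 and 34.0 FPKM. The cardiac sum was carried by the slow myosin gene Myh7 (1.29 and 31.0 FPKM as group means), and the other 2 cardiac markers tested, Tnnc1 (67.1% of the wild-type mean) and Myl7 (108%), did not pass. Of cardiac markers below the filter, Myh6 averaged 0.139 FPKM in wild type and 1.07 FPKM in the mutant. Tnnt2, also below it, went the other way, with 1.04 and 0.674 FPKM. The part of these markers in the mutant values was not tested.

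Genes around the 10 gave calls in both directions in the mutant. Of 17 other contractile genes tested, 4 fell, 4 rose and 9 did not pass, with a median log2 of -0.21. The LIM protein gene Pdlim7 fell (-0.73), and the myosin light chain gene Myl6 (0.52) and the vinculin gene Vcl (0.70) rose. Of SRF and its partners, 4 of 9 rose and 0 fell, with Csrp2 up from 65.5 ± 5.67 to 176 ± 10.7 FPKM (SD, n = 2 each; log2 1.41, limma adjusted p = 0.000171). Of 9 other pericyte genes, Cox4i2 (-1.11) and the adhesion gene Mcam (-0.80) fell, Angpt1 rose (0.80) and 6 did not pass. Angpt1 averaged 0.657 FPKM in the wild type and passed the filter only through the mutant, where it averaged 1.89 FPKM, so its direction was fixed by the filter. Cox4i2 stood at 22.3 and 30.0 FPKM in wild type against 11.8 and 11.2 FPKM in the mutant. With libraries rescaled to a common FPKM total, 0 genes of these 3 lists passed in either direction.

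The genes whose levels followed Acta2 most closely over the 8 libraries were Tmem119 (Pearson r = 0.988 in log2(FPKM + 1)), Myl9 (0.984), Glipr2 (0.982), Rhoc (0.979) and Tpm2 (0.979). For Pdgfrb they were Fam212a (0.998), Zeb2 (0.994), Ssr3 (0.994), Ednra (0.994) and Snai1 (0.994). These values are a description, since all points share the contrast of TRAP with whole lung. Tagln overlaps Pcsk7, which had between 6.94 and 8.43 FPKM in all libraries, and Des overlaps the noncoding Gm15179, listed at 0 in 7 libraries. The sources used here do not state whether counting used the strand, so fragments of overlapping genes may not be told apart.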

How the data were processed

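The 8 libraries were grouped by their titles. The authors deposited 1 table per library of FPKM with lower and upper confidence bounds, per the file headers. TopHat2 2.0.14, Bowtie2 2.2.3, Cufflinks 2.2.1, Cuffnorm and mm10 are named in the submitters' processing notes, and values were used as deposited. Deposited starts had 1 added. Log2(FPKM + 1) values of records averaging at least 1 FPKM in a fit were tested by limma 3.58.1 (R 4.3.3; eBayes with trend, two-sided), with Benjamini-Hochberg adjustment at 0.05 over all records. The TRAP fit had 1 residual degree of freedom (4.47 prior) and the mutant fit 2 (3.73 prior). Fragments were inferred as the squared ratio of a value to its standard error, reading value to upper bound as 2 standard errors, and intervals came from the same bounds. The steps were tested on simulated data. Duplicate libraries differed beyond counting error (mean squared difference 4.98 in wild type, 6.32 in mutant over 11426 records) and were kept apart. The 10 genes and all gene lists were chosen with earlier results of these data known. Named were the 10 genes, up to 4 genes per list by smallest p or, untested, largest change, the 5 genes of at least 5 FPKM that correlate best with Acta2 and with Pdgfrb, and Sox9. A gene that this rule names in the mutant comparison is not reported here. Cox4i2 in the TRAP comparison and Myh6 and Tnnt2 in the mutant comparison were chosen after their values were seen. Lum, Tek, Flt1, Synpo2, Abcc9 and Edn1 were named in that comparison because the filter fixed their direction. Alternatives were the pseudocount, scaling, filter, limma-voom, 6 groups, the replicate block and leaving out each E16 library.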

Additional observations from a re-analysis of the deposited data

How the results depend on the processing

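Direction was kept in 98 of 98 alternative values of the 10 genes for TRAP against whole lung, in 82 of 93 for the mutant, in 67 of 68 and 64 of 68 for the stage changes in TRAP and whole lung, and in 64 of 68 for their difference. The count of the 10 genes lower in TRAP was 9, and 0 with no filter. Cspg4 passed as well with limma-voom, a common FPKM total or 6 groups, though the p-values of the common total were implausibly small. With a filter of 5 FPKM neither Cspg4 nor Myocd was tested. The count lower in the mutant was 0, and 1 with limma-voom. It ranged from 0 to 0 without each E16 library and was 0 with all 8 libraries in 6 groups, an alternative added after the data were seen. With the replicate number as a block 4 genes passed as lower by limma, Acta2 (adjusted p = 0.0238), Actg2 (0.0309), Cnn1 (0.0177) and Tagln (0.00792). The share of all records that passed in that fit is not given here, so this count has no background. The replicate deviations of the genotypes correlated at 0.00721 over 11872 records, while replicate 2 was the higher one for 8 and 10 of the 10 genes. A value over all records cannot decide whether libraries of the same number share a preparation, and the labels do not say. Between stages, the count at least 2-fold higher in whole lung was 0, and 1 with a pseudocount of 0.1 or in 6 groups. In TRAP it was 1, and 0 with a common FPKM total or a filter of 5 FPKM. The count with a TRAP change at least 2-fold below that in whole lung was 1, and 4 with a pseudocount of 0.1 or a common total, 2 with median centring and 0 in 6 groups, where passing the test replaced the 2-fold rule. The common total moved the median of all records to -0.31 for TRAP against whole lung, 0.41 for the mutant and -0.41 for the TRAP stage change. Leaving out records under 200 bases before it kept the medians of the comparisons between -0.11 and 0.07. The causes were not tested. Depth limits Rgs5 and Myocd most, with 13 fragments at the lowest.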

Other observations

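Ligands that act on smooth muscle and pericytes were divided between the fractions. Of 9 tested, 4 were higher in TRAP, 3 lower and 2 did not pass by limma with Benjamini-Hochberg adjustment. Edn1, which is among those lower, entered the test only through whole lung, so its direction was fixed by the filter. The ligand genes Wnt7b (log2 2.12), Shh (1.66) and Tgfb2 (1.77) were higher, as was Tgfb3 (0.72), and with limma-voom Wnt7b stood at 1.04 and Shh at 1.07. Shh had 99.2 FPKM in TRAP against 24.7 FPKM in whole lung at E14, and 79.6 against 30.4 FPKM at E17. Between stages, Pdgfb, the ligand of PDGFRB, had 13.7 FPKM at E14 and 43.8 FPKM at E17 in TRAP, and 16.9 and 30.5 FPKM in whole lung, with no test. In the mutant, 4 of 8 fell, 3 rose and 1 did not pass. Tgfb2 fell from 35.2 ± 2.42 to 3.65 ± 0.275 FPKM (SD, n = 2 each; log2 -2.96, adjusted p by limma 2.9e-05) and Wnt7b from 173 ± 3.10 to 26.0 ± 2.42 FPKM (log2 -2.69), though limma-voom on inferred fragments gave Wnt7b a log2 of -0.89. Fgf9 fell (-1.03) with a mutant mean of 0.459 FPKM, so it passed the filter only through the wild type and its direction was fixed by it. The Notch ligand gene Jag1 rose from 1.26 ± 0.149 to 5.45 ± 0.196 FPKM (log2 1.52, or 2.13 with limma-voom). With libraries rescaled to a common FPKM total, which changed the wild-type duplicates unequally, 2 of the 8 passed as lower and 1 as higher.

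Paralogues of the 10 genes, many of them used by non-muscle cells, gave mixed calls. Of 15 tested, 6 were lower in TRAP, 1 higher and 8 did not pass, with a median log2 of -0.45. Lower were Pdgfra (-2.99), which is also on the mesenchyme list, the cardiac actin gene Actc1 (-2.29), Rgs4 (-1.73) and the non-muscle myosin gene Myh10 (-0.93). Rgs4 had a TRAP mean under 1 FPKM and entered the test only through whole lung, so its direction was fixed by the filter. In the mutant, 7 of 13 rose, 1 fell and 5 did not pass. The cytoplasmic actin gene Actg1 rose from 1448 ± 19.5 to 2098 ± 39.4 FPKM (SD, n = 2 each; log2 0.53, limma adjusted p = 0.00128), with Cnn2 (0.38) and Myh9 (0.47), while the vimentin gene Vim fell from 183 ± 22.1 to 102 ± 4.31 FPKM (-0.84). With a common FPKM total, which changed the wild-type duplicates unequally, 0 of the 13 passed in either direction.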
